A study of Zea mays with 4 samples.

Results

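Heat shock proteins, chaperonins and the enzymes that work with them were followed in maize (Zea mays) roots 1 h after one side of a divided root system was supplied with nitrate. The members were the 393 probes, of 55547 maize probe IDs on the arrays, whose deposited annotation named a heat shock protein, a chaperone or chaperonin, a DnaJ protein, a luminal binding protein, a protein disulfide isomerase or a peptidyl-prolyl isomerase (cyclophilin). Heat shock factors came in with the words heat shock. Copper chaperones and thioredoxins were left out, and so was any probe ID with more than 1 spot or with a spot on both array versions. Version A held 228 members and version B held 165.

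Molecular chaperones bind proteins that are not fully folded, keep them from clumping and let them fold, move through membranes or be assembled. HSP70 works with DnaJ partners on newly made or damaged chains, HSP90 finishes the folding of signalling proteins, chaperonins enclose a chain in a barrel, and HSP100 and small heat shock proteins act on aggregates or hold proteins that are about to aggregate. Many of these genes are always active, while the heat-inducible ones are switched on by heat shock factors, in roots as in other organs, when proteins become misfolded.

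The plants were raised for 6 days on 0.5 mM nitrate, starved of nitrogen for 2 days and then set with their roots in 2 compartments, so both sides shared this history. The nitrate side received 1 mM nitrate. The control side got no nitrogen, and calcium chloride at 1 mM made up for its missing calcium. Segments of 15 cm from the tip were collected at day 10. Each of the 4 arrays (2 per version) was hybridised with RNA of the nitrate side in Cy3 and of the control side in Cy5. The genotype of the plants was not given in the sources used here, and neither was the number of plants in an RNA sample. The control side belonged to plants that had nitrate on the other side, so it is a control for the local supply and not for a plant without nitrate.

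The dye orientation was the same on all 4 arrays, and a dye effect particular to a probe therefore cannot be told apart from a nitrate effect. The series text names 2 biological replicates, but the column headers call the RNAs CK1 and NO3-1 on replicate 1 and CK1-2 and NO3-1-2 on replicate 2, in both versions, which does not settle whether they came from separate plants. The spread between arrays, and every p-value, may therefore be partly technical. It also means that replicate 1 of version A and replicate 1 of version B carry the same names, so that a pattern seen on both versions may rest on the same RNA. In RNA of whole segments, fewer cells of a type and less RNA per cell cannot be told apart. Of probes annotated with root terms, 37 of 37 (version A) and 37 of 40 (version B) were above the blank spots. So were 69 of 70 and 64 of 71 leaf probes, and this check did not separate root from leaf. For seed probes the counts were 58 of 63 and 164 of 263. The version B seed share, 62.4%, was well below that of root (92.5%) and leaf (90.1%) probes. The version A seed share was 92.1%, beside 100% and 98.6%. The median intensity of the members was 2617 to 4169 in the nitrate channel and 2931 to 3563.5 in the control channel, against 1572.5 to 1939 and 1438 to 1960 for all maize spots. At least 1 channel of 381 members exceeded the blank spots on both arrays, and these 381 were tested. The other 12 are accounted for at the end.

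No heat shock or chaperonin probe passed the test for a difference between the nitrate and the control side. With limma and a Benjamini-Hochberg adjusted p under 0.05, 0 of 226 members were called on version A, where 0% of all 28374 tested probes were called, and 0 of 155 on version B, where 0.0525% of 24748 were called. The smallest adjusted p of a member in limma was 0.163 on version A and 0.15 on version B. The 13 calls on version B were all higher on the nitrate side and had a log2 ratio of at least 1.98, above that of any member. The 95% interval of a member's log2 ratio, before any adjustment, reached a median of 0.55 to either side on both versions. The adjusted test asked for more than this. Members with means as high as 1.66 on version A and 1.21 on version B were not called, so large differences could also go undetected with 2 arrays.

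The members taken as a whole lay close to 0. Their median log2 ratio of nitrate over control was 0.02 on version A and 0.07 on version B, against 0.0038 and -0.0036 for all tested probes. At an unadjusted limma p under 0.05, 51 of 381 members stood out, 37 of them higher (7.59% of all tested probes were) and 14 lower (4.86% were) on the nitrate side. The share of such probes over both versions was 12.5%, and that of the members was 13.4%, close to the background. Both arrays had a ratio above 0 for 134 members (35.2%, where 30.1% of all tested probes did) and below 0 for 104 (27.3%, where 30.4% did), and the arrays disagreed in sign for 143. With each array centred on its median in place of the loess curve, the medians of the members were -0.0891 and -0.0372, so their sign depended on the normalization. Those of all tested probes were then 0.00023 and -0.0384, so on version B the members lay level with the background. The medians of chaperonins, HSP90, DnaJ proteins, disulfide isomerases, peptidyl-prolyl isomerases and co-chaperones, all above 0 over both versions, were likewise below 0 with median centring. The median of all tested probes over both versions was then -0.018.

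**Figure D1:**
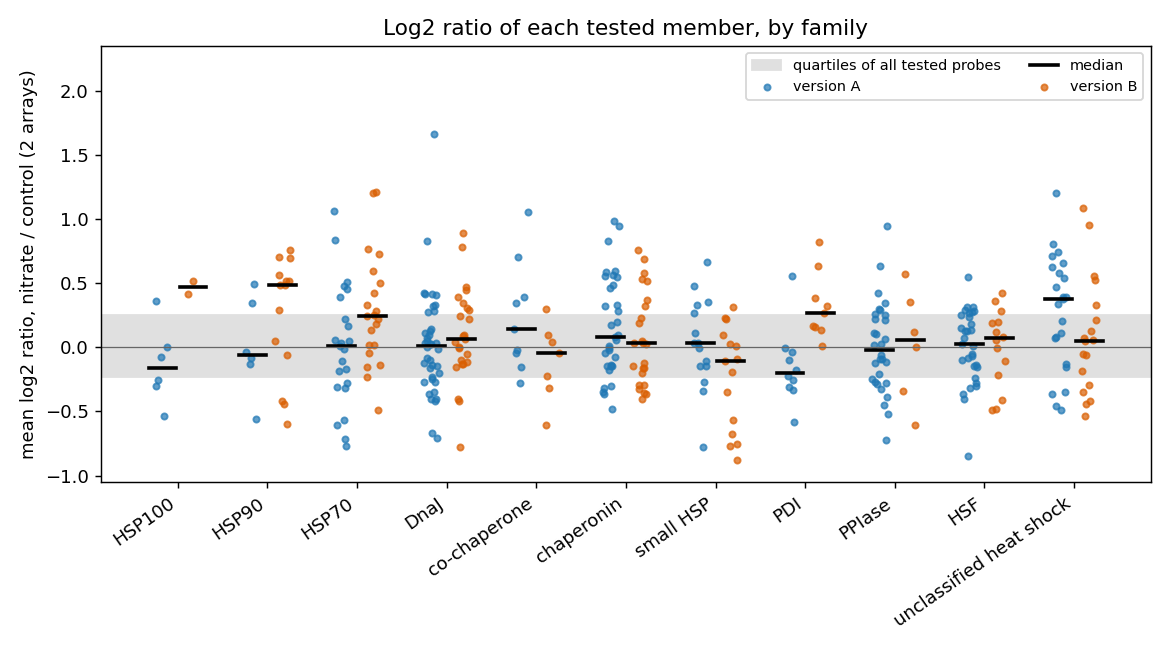
Mean log2 ratio (nitrate over control, 2 arrays) of each of the 381 tested members, by family. Points are probes of version A (blue) and version B (orange), black bars are medians, and the grey band lies between the quartiles of all 53122 tested probes and runs from -0.229 to 0.253. Family medians lie between -0.20 and 0.49, and single probes between -0.88 and 1.66.

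The highest ratio belonged to a DnaJ protein, although the authors' deposited ratio put the dim p23 co-chaperone probe MZ00011528 above it (a mean log2 of 3.30 against 1.86). DnaJ proteins, also called HSP40, bring unfolded chains to HSP70 and start its ATPase cycle. The probe MZ00020013, annotated as a DnaJ homolog, had intensities of 5194 and 6506 on the nitrate side and of 1308 and 2571 on the control side. Its log2 ratios were 2.03 on replicate 1 and 1.30 on replicate 2, with a mean of 1.66 ± 0.52 (SD, n = 2) and a limma adjusted p of 0.163. The nitrate channel was the brighter one on both arrays by more than 2-fold, and no other member reached 2-fold on both arrays. That made 1 of 226 members on version A, where 0.592% of all tested probes reached 2-fold, and 0 of 155 on version B, where 0.59% did. No member was 2-fold lower on both arrays, where 0.127% and 0.0566% of all tested probes were. A second probe with the same protein hit, MZ00044437 on version B, had log2 ratios of -0.20 and 0.18, so the 2 probes did not show the same ratio.

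The 65 tested DnaJ probes had a median log2 ratio of 0.024. Of these, 20 were above 0 and 18 below 0 on both arrays (30.8% and 27.7%, where 30.1% and 30.4% of all tested probes were). At an unadjusted p under 0.05, 4 were higher and 3 lower (6.15% and 4.62%, where 7.59% and 4.86% of all tested probes were), so both counts were near the background. On the high side, MZ00047111 and MZ00020991 of version B and MZ00021593 of version A had means of 0.89, 0.78 and 0.83. The last was the highest of 6 probes that share a protein hit. Their median was -0.14, with 1 above 0 and 3 below 0 on both arrays. On the low side, a probe similar to pea DnaJ, MZ00014851 on version B, had log2 ratios of -0.88 and -0.67 (mean -0.77 ± 0.15, SD, n = 2; limma adjusted p 0.247). Probes of ZMDJ1, a maize DnaJ homolog, were spread on both sides of 0: MZ00021428 had a mean of -0.67, MZ00041097 one of 0.45, and the other 4 lay between -0.15 and 0.27. The brightest DnaJ probe, MZ00017165, had log2 ratios of -0.12 and -0.34.

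**Figure D2:**
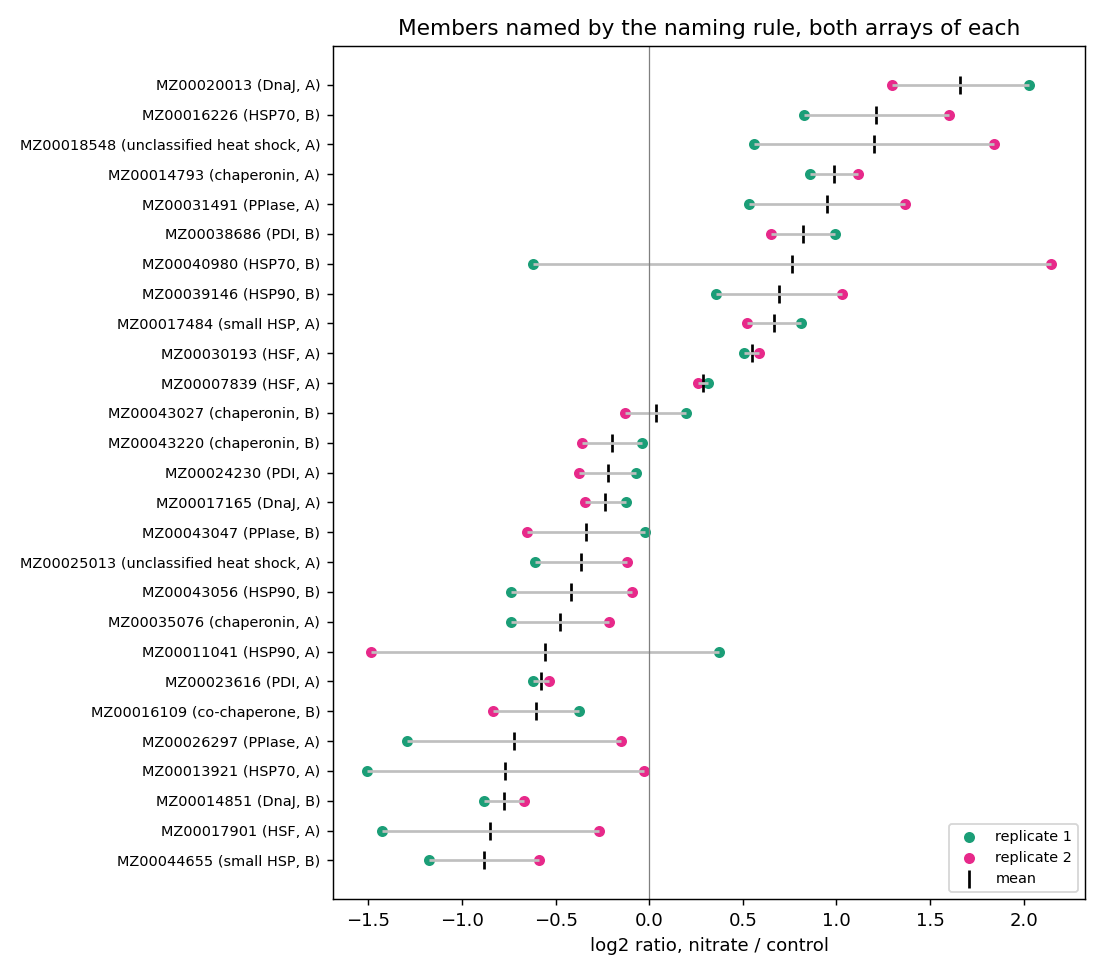
Log2 ratio of nitrate over control on replicate 1 (green) and replicate 2 (pink), with the mean (black bar), for the 27 members picked by the naming rule, which takes the highest, lowest and brightest unsaturated probe of each family as the rule's own patterns define them. These patterns have no HSP100 or co-chaperone group, so no HSP100 probe is shown, nor the highest co-chaperone. The text's family and the array version stand beside each probe. The DnaJ probe MZ00020013 is at the top with 2.03 and 1.30, and the HSP70 probe MZ00040980 has the widest gap, from -0.62 to 2.15.

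HSP70 is the central ATP-driven folding machine, with forms in the cytosol, the mitochondria, the plastids and, as luminal binding protein (BiP), the endoplasmic reticulum. The 44 tested HSP70 probes had a median log2 ratio of 0.094, and 4 were higher and 2 lower at an unadjusted p under 0.05 (9.09% and 4.55%, near the 7.59% and 4.86% of all tested probes). The highest was MZ00016226, similar to Arabidopsis Hsc70-5. Its nitrate channel read 1632 and 10326 and its control channel 840 and 2930, and the log2 ratios were 0.83 and 1.60, both above 0 (mean 1.21 ± 0.55, SD, n = 2; limma adjusted p 0.15). The lowest, MZ00013921, had log2 ratios of -1.51 and -0.03 (mean -0.77 ± 1.04, SD, n = 2; limma adjusted p 0.445), and the low value came from replicate 1 alone.

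For several HSP70 probes the arrays gave very different answers. The brightest HSP70 probe without a saturated spot, MZ00040980, similar to a rice HSP70, read 6710 on the nitrate side and 13690 on the control side of replicate 1. On replicate 2 it read 53453 and 12317. Its log2 ratios were -0.62 and 2.15, so its mean of 0.76 ± 1.96 (SD, n = 2; limma adjusted p 0.573) describes neither array. The same held for 3 further probes. MZ00040837 on version B had log2 ratios of -0.53 and 1.99, MZ00035984 on version B of 0.02 and 2.38, and MZ00000354 on version A of 0.06 and 2.06. In all 4 the nitrate channel was far brighter on replicate 2, and the control channel differed less: MZ00035984 went from 4874 to 23538 in nitrate and from 6007 to 4172 in control, and MZ00000354 from 4912 to 35649 and from 5520 to 10256. The deposited intensities of all probes moved by a median log2 of 0.0974 (version A) and 0.0366 (version B) in the nitrate channel between the same arrays.

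The 6 probes annotated as mitochondrial HSP70 had a median log2 ratio of 0.24, with a range of -0.32 to 0.50, beside a median of 0.14 for the 31 cytosolic or unspecified probes. MZ00016226 is counted among the latter because its annotation names no organelle, although Hsc70-5 is known as a mitochondrial form in Arabidopsis. Of the 3 plastid probes, MZ00034327 had log2 ratios of 0.20 and 1.48 and the other 2 had means of 0.05 and -0.14. Luminal binding protein was measured by 4 probes: MZ00002284, a dim probe, had log2 ratios of -0.55 and -0.87 (mean -0.71, but -2.80 without normexp and -2.01 with the authors' deposited ratio), while the other 3 had means of 0.01, 0.03 and 0.18. The BiP2 probe MZ00025067 was near the scanner's upper limit, like 22 other members, and such a ratio is compressed toward equal channels.

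HSP90 takes over from HSP70 the folding of kinases and receptors. Its 20 tested probes, annotated as HSP90, Hsp90-1 or HSP82, had a median log2 ratio of 0.32, the highest of the families, but it was -0.09 with median centring. The 6 probes of version A had a median of -0.06 and the 14 of version B one of 0.49. On version B the value rested on replicate 2, where the median was 0.88, while it was -0.17 on replicate 1. The highest probe without a saturated spot, MZ00039146 (HSP82), read 20442 and 20766 in nitrate and 21827 and 9974 in control. It had log2 ratios of 0.36 and 1.03 (mean 0.69 ± 0.47, SD, n = 2; limma adjusted p 0.323).

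Other HSP90 probes crossed 0 between the arrays. MZ00042955 (HSP82) read 9680 and 51058 in nitrate and 18806 and 17912 in control, and its log2 ratios were -0.52 and 1.56. MZ00035916 (Hsp90-1) had -0.32 and 1.29, with 12139 and 23707 in nitrate and 20598 and 9514 in control. For the first the change lay in the nitrate channel, and for the second in both channels in opposite directions. MZ00040123 (Hsp90-1) and MZ00042904 (HSP82) had log2 ratios of -0.08 and 1.48 and of -0.27 and 1.23, with a saturated nitrate channel on replicate 2. MZ00035477 (HSP82) was below 0 on both arrays, with -0.73 and -0.47. MZ00011041, similar to a rye precursor, had a far lower ratio on replicate 2, with 0.37 and -1.49.

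HSP100 (HSP101) pulls proteins out of aggregates together with HSP70 and is needed for heat tolerance in maize. Its 8 probes had a median log2 ratio of -0.03. MZ00025801 read 1703 and 1890 in nitrate and 6830 and 988 in control, and its log2 ratios were -1.76 and 0.69 (mean -0.54 ± 1.73, SD, n = 2; limma adjusted p 0.691). MZ00029452 had log2 ratios of -0.74 and 1.46, with 1275 and 2790 in nitrate and 2323 and 837 in control. Both probes were below 0 on replicate 1 and above 0 on replicate 2, and for MZ00025801 the nitrate channel hardly differed between arrays while the control channel did. Both version B probes, MZ00047729 and MZ00044418, were above 0 on both arrays with means of 0.42 and 0.52.

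Small heat shock proteins hold unfolding proteins until HSP70 can refold them, and in plants they fall into cytosolic classes and organelle forms. The 30 tested probes had a median log2 ratio of -0.05, and 1 was higher and 4 lower at an unadjusted p under 0.05 (3.33% and 13.3%, where 7.59% and 4.86% of all tested probes were). The lowest was a class II probe, MZ00044655, annotated as 17.5 kDa. It read 528 and 663 in nitrate and 1252 and 739 in control, and its log2 ratios were -1.17 and -0.59, both below 0 (mean -0.88 ± 0.41, SD, n = 2; limma adjusted p 0.219). A second probe with this class II annotation, MZ00036620, had -1.04 and -0.32, while another, MZ00024485, had -0.01 and 0.03. The HSP17.9 probe of version B, MZ00042827, had -0.87 and -0.64, but the 3 of version A were not lower: MZ00023395 had 0.10 and -0.03, MZ00023387 had 0.05 and 0.61, and MZ00001225, with a saturated channel, had 0.59 and 0.37. The highest small heat shock probe, MZ00017484 (HSP17.2), had log2 ratios of 0.81 and 0.52 at low intensities, with 380 and 479 in nitrate against 124 and 216 in control.

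Other small heat shock probes had opposite signs on the arrays. The class I probe MZ00035042 read 2697 and 3119 in nitrate and 9489 and 1366 in control, and its log2 ratios were -1.55 and 1.01. The class I probe MZ00017449, similar to a sunflower protein, read 6861 and 8084 in nitrate and 20274 and 3375 in control, and had log2 ratios of -1.21 and 1.27. The control channel thus differed about as strongly as the ratio, while the nitrate channel stayed close. A further class II protein was probed on both versions under 1 annotation, and MZ00028315 on A had -0.70 and 0.92 and MZ00024484 on B had -0.82 and 1.01. For Hsp23.6, MZ00029223 had -1.75 and 0.21, but MZ00037316, under the same name, had 0.33 and -0.51.

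**Figure D3:**
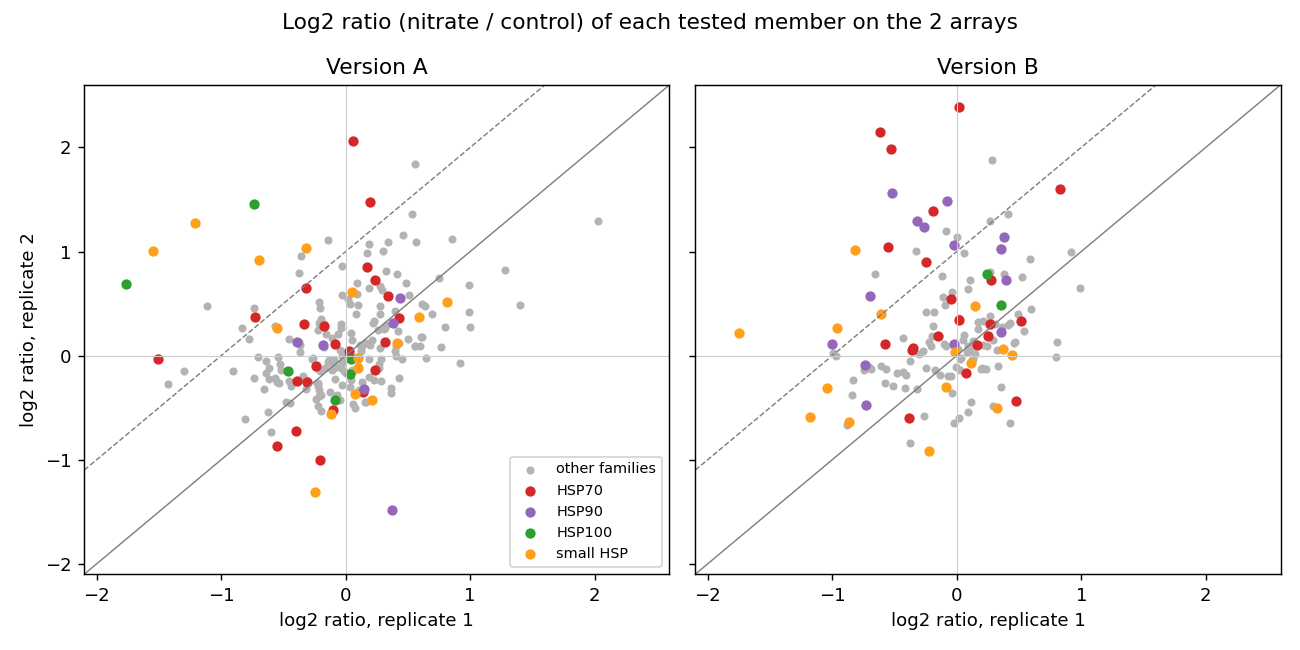
Log2 ratio of nitrate over control on replicate 1 (x axis) and replicate 2 (y axis) for every tested member of version A (left, 226 probes) and version B (right, 155 probes). Colours mark HSP70, HSP90, HSP100 and small heat shock proteins, and grey marks the other families. The solid line is equality and the dashed line a log2 ratio higher by 1 on replicate 2, above which lie 19 probes of version A and 24 of version B, 10 and 17 of them coloured.

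Most members with such a gap between the arrays belonged to the classical heat shock families. A log2 ratio at least 1 higher on replicate 2 than on replicate 1 was found for 43 of 381 members (11.3%), where 5.74% of all tested probes had one. The opposite gap was found for 3 members, where 3.22% of all tested probes had it. Of the 102 probes of HSP70, HSP90, HSP100 and small heat shock proteins, 27 had the gap (26.5%), and of the 279 probes of the other families 16 had it (5.73%, the share of all probes). These 4 families were set together after their values were seen, so the count is a description. By version it was 10 of 50 on version A, against 5.87% of all probes, and 17 of 52 on version B, against 5.59%.

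By family, HSP90 had the gap in 7 of 20 probes, small heat shock proteins in 8 of 30, HSP100 in 2 of 8 and HSP70 in 10 of 44. Peptidyl-prolyl isomerases had it in 5 of 36, heat shock factors in 3 of 45, DnaJ proteins in 3 of 65, unclassified heat shock proteins in 3 of 41 and chaperonins in 2 of 57. No protein disulfide isomerase (0 of 19) and no co-chaperone (0 of 16) had it. Over 7 other processing settings the counts were 6 to 7 for HSP90, 10 to 11 for HSP70, 7 to 8 for small heat shock proteins and 2 for HSP100. Among these settings, dropping the filter on dim probes and changing the prior cannot alter the ratio of a tested probe. Those of the other families moved more: heat shock factors had the gap in 9 probes with the authors' deposited ratio, 5 without normexp and 2 with median centring. The counts were 2 to 5 for DnaJ proteins, 3 to 5 for peptidyl-prolyl isomerases, 2 to 4 for unclassified heat shock proteins, 1 to 3 for chaperonins, 0 to 1 for disulfide isomerases and 0 for co-chaperones. With the authors' deposited ratio on version A, however, the share of all members with the gap was 10.6% and that of all probes 10.0%.

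The channel that carried the gap differed between the versions. On version A, the 10 heat shock probes with the gap had a median log2 change from replicate 1 to replicate 2 of 0.47 in the deposited nitrate intensity and of -1.55 in the control intensity. On version B the 17 probes had 1.32 in the nitrate intensity and -0.48 in the control intensity, where the control channel of all tested probes moved by -0.46. So the difference lay mostly in the control side's deposited signal on version A and in the nitrate side's on version B. Whether the authors had scaled these intensities array by array is not given in the sources used here. Probe sets differ between versions, and which of RNA, dye or hybridisation differed between the arrays was not tested. Over all members, the log2 ratios of the replicates correlated at 0.239 on version A and 0.184 on version B, as a description across probes that share arrays, against 0.289 and 0.269 for all tested probes.

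**Figure D4:**
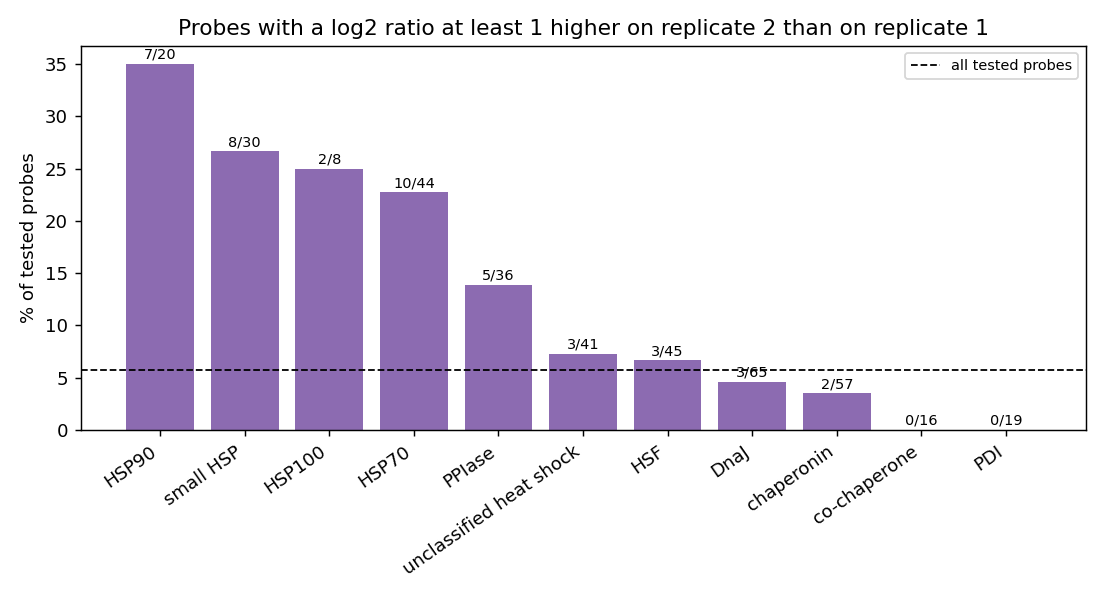
Share of the tested probes of each family, in percent, whose log2 ratio was at least 1 higher on replicate 2 than on replicate 1 (both versions). Bars carry the number of such probes over the number tested, and the dashed line is the share of all tested probes, 5.74%. HSP90, small heat shock proteins, HSP100 and HSP70 stand at 22.7% to 35%, and the other families at 13.9% or less.

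Among chaperonins, the ratios of the arrays lay closer together than this gap in 55 of 57 probes. Of all tested probes, 5.74% were at least 1 higher and 3.22% at least 1 lower on replicate 2. All 19 disulfide isomerase and all 16 co-chaperone probes also lay closer together than the gap. Chaperonins are barrels of the HSP60 type in mitochondria and plastids and of the TCP-1 type in the cytosol, which folds actin and tubulin. The 57 tested probes had a median log2 ratio of 0.035, and 10 were higher and 0 lower at an unadjusted p under 0.05 (17.5% higher, where 7.59% of all tested probes were). With median centring the family median was -0.11. The highest was MZ00014793, a probe for the plastid RuBisCO-binding alpha subunit. It read 503 and 2057 in nitrate and 183 and 773 in control, with log2 ratios of 0.86 and 1.12 (mean 0.99 ± 0.18, SD, n = 2; limma adjusted p 0.278). The second probe with this protein hit, also on version A, was below 0 on both arrays with a mean of -0.36. The 12 tested probes of plastid 60 kDa chaperonins had a median of 0.06.

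Of the 9 mitochondrial HSP60 probes, 5 were above 0 on both arrays and 3 below (where 30.1% and 30.4% of all tested probes were). MZ00009097, annotated as maize hsp60, read 10989 and 14880 in nitrate and 4994 and 12257 in control, with log2 ratios of 1.40 and 0.49. MZ00015453 (CPN60-2) had 0.99 and 0.67, and MZ00042207, also CPN60-2 but on version B, had 0.38 and 0.78. The other hsp60 probes, MZ00043405 and MZ00036655 on version B, had means of -0.16 and 0.05. The 4 probes that share 1 CPN60-2 hit had means from -0.18 to 0.83, with 3 above 0 and 1 below 0 on both arrays. A probe of a second CPN60-2 entry had a mean of -0.14 and was below 0 on both. The 12 probes counted as the cytosolic TCP-1 type had a median of 0.29. Of these, 4 share a hit annotated as TCP-1/cpn60 family, which names no compartment. The gamma chain was probed 5 times: MZ00041840 and MZ00041839 on version B had means of 0.76 and 0.69, and MZ00013971, MZ00013970 and MZ00013969 on version A had 0.55, -0.15 and -0.32. The lowest chaperonin, MZ00035076, annotated as TCP-1/cpn60 family, had log2 ratios of -0.74 and -0.21.

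The small co-chaperonins, the lids of the organelle barrels, were not higher. Their 14 tested probes had a median log2 ratio of -0.06, and 0 had an unadjusted p under 0.05. On version B, 5 of 7 were below 0 on both arrays (where 30.6% of all tested probes were), with the lowest mean at -0.41 (MZ00039944), and 0 of 7 were above 0 on both. On version A, 3 of 7 were above 0 on both arrays, with the highest mean at 0.46 (MZ00024940). The bright co-chaperonin probes MZ00043220 and MZ00043027 had means of -0.20 and 0.03, the latter -0.40 with median centring.

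Protein disulfide isomerases form and shuffle disulfide bonds in the endoplasmic reticulum. Their 19 tested probes split by array version. On version B, 8 of 9 were above 0 on both arrays (where 29.7% of all tested probes were) with a median of 0.27, and on version A, 5 of 10 were below 0 on both (where 30.1% were) with a median of -0.20. Over the 7 other processing settings these medians were 0.11 to 0.31 on version B and -0.47 to -0.10 on version A. Dropping the filter and changing the prior, which are among these settings, leave the ratio of each tested probe as it was. The highest was MZ00038686 on version B, which read 14685 and 33911 in nitrate and 9783 and 22275 in control. Its log2 ratios were 0.99 and 0.65 (mean 0.82 ± 0.24, SD, n = 2; limma adjusted p 0.23). The lowest was MZ00023616 on version A, with 838 and 464 in nitrate, 1353 and 561 in control and log2 ratios of -0.62 and -0.54 (mean -0.58 ± 0.06, SD, n = 2; limma adjusted p 0.398).

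Both versions held probes for the same maize isomerase entry, and these split in the same manner. The 4 probes of version A had means from -0.58 to -0.0024 and the 4 of version B from 0.14 to 0.64, although the protein hit was the same. The ratios of the versions were normalized separately, and whether these probes see 1 gene was not tested. Across 280 probe IDs tested on both versions, which are not members, mean log2 ratios correlated at only 0.092 between versions. Their mean log2 intensities did not correlate between versions either (-0.0551), so these IDs may not read the same RNA on both. They therefore cannot show whether the split was particular to the isomerases.

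Peptidyl-prolyl isomerases speed up a slow turn of the protein backbone at proline. The 36 tested probes had a median of 0.01, with 2 higher and 1 lower at an unadjusted p under 0.05 (5.56% and 2.78%, where 7.59% and 4.86% of all tested probes were). MZ00031491, annotated as a 70 kDa isomerase, read 952 and 1853 in nitrate and 597 and 554 in control. Its log2 ratios were 0.53 and 1.36 (mean 0.95 ± 0.59, SD, n = 2; limma adjusted p 0.326). The lowest, MZ00026297, had -1.30 and -0.15 and the brightest, the cyclophilin MZ00043047, -0.02 and -0.65.

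Co-chaperones set the pace of HSP70 and HSP90. Their 16 tested probes had a median of 0.01. The highest, MZ00028141, an Hsp70-binding protein, read 8193 and 16923 in nitrate and 3926 and 11023 in control, with log2 ratios of 1.28 and 0.83 (mean 1.05 ± 0.32, SD, n = 2; limma adjusted p 0.277). The other 2 tested probes of that name had means of -0.02 and 0.09. MZ00016109, an activator of the HSP90 ATPase, was at the low end with -0.37 and -0.84 (mean -0.60 ± 0.33, SD, n = 2; limma adjusted p 0.355). The 7 probes of p23, which stabilises HSP90 bound to its client, had means from -0.32 to 0.35. The upper value was that of MZ00011528, which read 109 and 69 in nitrate and 6 and 14 in control, the control channel not above the blank spots on either array. Its log2 ratios were 0.60 and 0.09, and its mean of 0.35 depended on the processing: it was 1.67 without normexp and 3.30 with the authors' deposited ratio.

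Heat shock factors are the transcription factors that switch on heat shock genes, and the 45 tested probes include a few for factor-binding proteins, which restrain them. Their median was 0.06, and 1 was higher and 1 lower at an unadjusted p under 0.05 (4.44%, where 12.5% of all tested probes stood out). The highest, MZ00030193, read 7497 and 15883 in nitrate and 6333 and 12275 in control and had log2 ratios of 0.51 and 0.59, both close together (mean 0.55 ± 0.06, SD, n = 2; limma adjusted p 0.409). The lowest, MZ00017901, read 1159 and 2984 in nitrate and 3569 and 3471 in control and had log2 ratios of -1.43 and -0.27 (mean -0.85 ± 0.82, SD, n = 2; limma adjusted p 0.389). The RHSF5 probe MZ00007760 crossed 0, with -1.11 and 0.48. The brightest, MZ00007839 (RHSF12), had 0.31 and 0.26, but a mean of -0.13 with median centring.

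The other 41 tested probes were annotated only as heat shock proteins, with no family named, and a role is not given for them here. They had a median of 0.13, and 7 were higher and 0 lower at an unadjusted p under 0.05 (17.1% and 0%, where 7.59% and 4.86% of all tested probes were). The highest, MZ00018548, read 838 and 3494 in nitrate and 500 and 802 in control, with log2 ratios of 0.56 and 1.84 (mean 1.20 ± 0.91, SD, n = 2; limma adjusted p 0.312). MZ00046344 on version B had 0.92 and 0.99, an even pair (mean 0.96 ± 0.06, SD, n = 2; limma adjusted p 0.177).

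Several probes often shared a protein hit, the best match in a protein database given by the authors, and so may measure 1 gene or close relatives. The 381 tested members fell on 190 hits, and 89 hits had at least 2 probes. In 32 of these 89 hits all probes had means of the same sign, and the median distance between the highest and the lowest probe of a hit was 0.486 in log2. The hit with the most probes, an unclassified heat shock protein measured by MZ00018548, MZ00049902, MZ00034317 and 6 others, had means from -0.54 to 1.20. The largest distance, 1.81, was within an HSP70 hit, between MZ00013473 (-0.61) and MZ00035984 (1.20). In addition, 125 members list another maize sequence with a full match in the authors' annotation, so cross-hybridisation within a family is possible and the probe values are not independent.

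**Figure D5:**
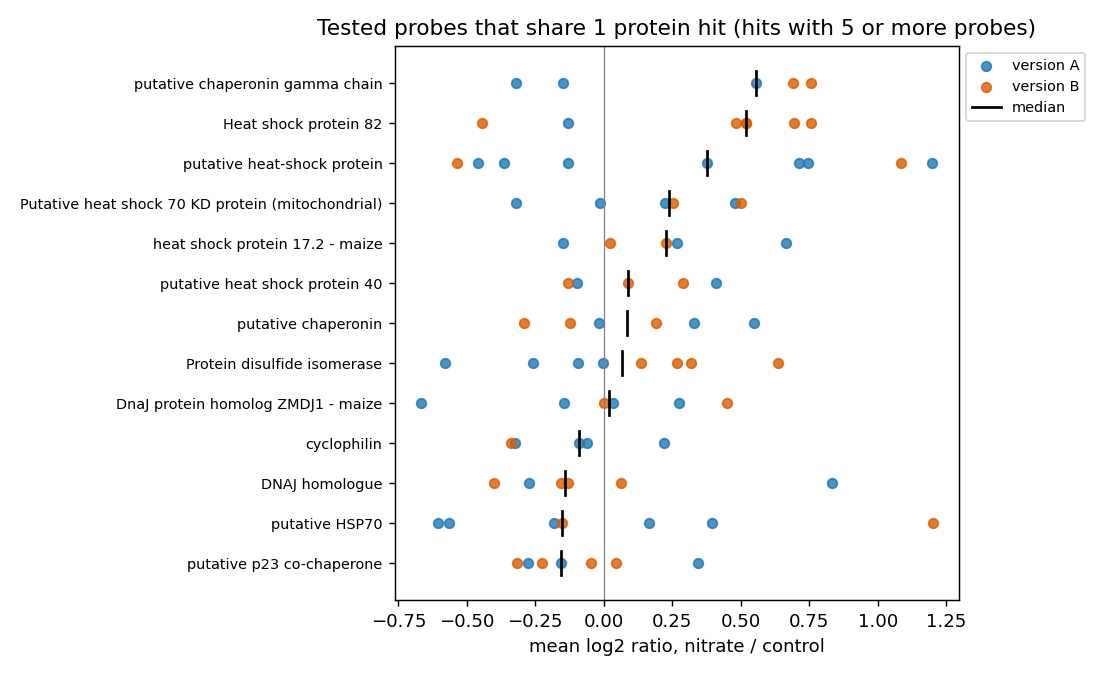
Mean log2 ratio of nitrate over control for the tested probes of each protein hit with 5 or more probes, on version A (blue) and version B (orange), each normalized on its own. The black bar is the median of the hit. All of these hits have probes on both sides of 0, and the gamma chaperonin and HSP82 hits have the highest medians.

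Folding genes outside these families were also examined, from a list of calnexin, calreticulin, GrpE, prefoldin, BAG, Sgt1 and FK506-binding protein annotations. Of the 48 probes, 47 were tested and 0 were called by limma. Their median log2 ratio was -0.05. At an unadjusted p under 0.05, 3 of 47 were higher and 2 of 47 lower (where 7.59% and 4.86% of all tested probes were). Calreticulin is a calcium-binding chaperone of the endoplasmic reticulum. Its highest probe, MZ00028428, had log2 ratios of 1.38 and 1.20 (mean 1.29 ± 0.12, SD, n = 2; limma adjusted p 0.197). The other calreticulin probes had means from -0.34 (MZ00012607) to 0.72 (MZ00039215). A GrpE probe, MZ00015984, had -0.89 and -0.72, but a second one, MZ00015985, had -0.63 and 0.07. The 2 GrpE probes that are members, counted among the co-chaperones, had means of -0.05 and 0.39.

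The 12 members not tested were too dim on at least 1 array. They were 2 chaperonins, 3 DnaJ proteins, 2 heat shock factors, 2 unclassified heat shock proteins and 1 probe each of a disulfide isomerase, an Hsp70-binding protein and a class II small heat shock protein. Their intensities ran from -27 to 840.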

How the data were processed

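Per the file headers, the authors deposited 1 intensity for each dye and spot, in whole numbers on a linear scale. Some intensities are below 0, so a background had been subtracted. The ratio that the authors deposited beside them is linear, nitrate divided by control, and its median of 0.996 to 1.01 per array shows normalization within arrays. The series value table equals this ratio. How both steps were done is not given in the sources used here.

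From the deposited intensities, log2 ratios were derived in R 4.3.3 with limma 3.58.1: normexp with an offset of 50, which shrinks the ratios of dim probes, and then a global loess curve per array that ignored control spots. Spots with flag B (4 to 10 per array), read as bad quality, were dropped. A channel counted as above background past the 95th percentile of buffer and blank spots, and testing required this of 1 channel or more on both arrays. A channel at or above 98% of the array's highest value counted as saturated. Means were tested against 0 with lmFit and eBayes per version, with Benjamini-Hochberg adjustment over all tested probes at 0.05. With 2 arrays the test leans on a spread pooled over probes. The code was tested on simulated data. Alternatives were median centring, print-tip loess, no normexp, the deposited ratio, scaled arrays, no filter, another prior and each array alone.

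Members and lists were chosen with earlier results of these data known. The naming rule takes any probe that passed the test or differed 2-fold in 1 direction on both arrays, and the highest, lowest and brightest unsaturated probe of each family. Its patterns have no co-chaperone group and put most HSP101 and the 20 kDa chaperonin probes among small heat shock proteins, so the families in the text were corrected after the annotation was read. The rule therefore names no HSP100 probe, and not the highest co-chaperone, the lowest HSP90 or the lowest unclassified probe of the text's families. Members named beyond the rule were chosen after their values were seen. On 280 probe IDs tested on both versions, left out by the member rule, mean log2 intensity correlated at -0.0551 between versions and mean log2 ratio at 0.092.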

Additional observations from a re-analysis of the deposited data

How the results depend on the processing

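No member was called by limma at an adjusted p under 0.05 in any of the 8 settings run. The smallest adjusted p of a member over these settings was 0.13 on version A and 0.0755 on version B, both with median centring. Members with a 2-fold difference in 1 direction on both arrays numbered 2 on version A and 1 on version B with median centring, 3 and 1 without normexp, and 3 on version A with the authors' deposited ratio. The counts over all probes rose too. On version A, 168 were higher and 36 lower as reported. They were 279 and 71 with median centring, 372 and 156 without normexp, and 546 and 84 with the deposited ratio. On version B, 146 and 14 became 314 and 67 with median centring and 286 and 82 without normexp. On single arrays, which leave no test and have no background count here, such members numbered 10 to 19 on version A and 3 to 21 on version B. The median log2 ratio of the members was -0.0891 (version A) and -0.0372 (version B) with median centring, where that of all tested probes was 0.00023 and -0.0384. Over single arrays the median of the members ranged from 0.0109 to 0.0757 on version A and from -0.0011 to 0.115 on version B. Median centring turned the sign of the brightest heat shock factor MZ00007839 (-0.13) and of the chaperonin MZ00043027 (-0.40). Over all 381 tested members, it turned the sign of 87, where print-tip loess turned 41 and the deposited ratio 44. The mean of the dim p23 probe MZ00011528, 0.35 as reported, was 1.67 without normexp and 3.30 with the deposited ratio. The cause was not tested. Calls over all probes were 13 on version B as reported, 18 with median centring, 3 with print-tip loess, 0 without normexp, 0 with the deposited ratio, 4 with scaled arrays, 10 without the filter on dim probes and 71 with a trended robust prior, and on version A 0 as reported, 8 with print-tip loess and 4 with that prior. Having 2 arrays per version limits every value, and 23 members had a saturated channel. No paired analysis was possible because each array already holds both sides and the replicate number gives no further pair.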
